A study of Mus musculus with 8 samples.

Results

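The 10 genes described here encode the subunits of the transcription factor NF-kB and the proteins that restrain it. They are Nfkb1, Nfkb2, Rel, Rela and Relb, the 5 subunit genes, and Nfkbia, Nfkbie, Nfkbiz, Bcl3 and Tnfaip3, called here the 5 inhibitor genes. They were taken by name from the 54532 gene rows of the deposited count table, each name matched 1 row, and all 10 were among the 13646 genes tested between M_KO and M_WT. RNA was sequenced from macrophages of the mouse peritoneal cavity after stimulation with thioglycollate broth, which recruits monocytes and other leukocytes there. The groups were 3 M_KO libraries (M_KO_5944, M_KO_5645 and M_KO_5642) and 3 M_WT libraries (M_WT_5643, M_WT_6258 and M_WT_6255), with 1 F_KO library (F_KO_5639) and 1 F_WT library (F_WT_5638). KO marks the loss of Men1, the gene of menin, a scaffold of histone methyltransferase complexes, and all groups received the broth. The labels do not spell out the letters M and F, and say nothing of the deletion's design, a Cre driver, the strain or the age of the animals. Each library carries its own animal number, but nothing says when the animals were handled, so the p-values measure the spread between these samples.

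NF-kB is a family of dimers held in the cytoplasm of resting macrophages by inhibitor proteins. Signals from Toll-like receptors or tumour necrosis factor activate a kinase that marks the inhibitors for destruction, and the freed dimers enter the nucleus and switch on inflammatory genes. Among the genes switched on are those of the inhibitors and of several subunits, which makes the level of these transcripts a common readout of recent signalling. Rela, Rel and Relb encode subunits with a transactivation domain, while Nfkb1 and Nfkb2 encode precursors that are processed into DNA-binding partners. Nfkbia and Nfkbie encode IkB-alpha and IkB-epsilon, which are among the classical inhibitors that hold dimers in the cytoplasm. Nfkbiz and Bcl3 encode nuclear relatives of these inhibitors, which can also activate some targets, and Tnfaip3 encodes a ubiquitin-editing enzyme that shuts down signalling upstream of the kinase.

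RefSeq start sites on GRCm38.p6, the build family that the submitters' notes name, were given for 7 of the 10 genes. Nfkb1, Relb and Nfkbiz were not matched. The 250 bases before each start were searched on both strands for the kappa-B consensus decamer, the motif that NF-kB dimers bind. It was present for 5 of the 7 genes, against 8.23% of the 27025 genes with a window. Rela and Bcl3 held no match in this window. For each of the 5 genes 1 window with a match is shown, because binding of NF-kB before its own inhibitor and subunit genes is the known basis of the feedback. Each is written 5′ to 3′ on the gene's strand, ends next to the start site, and has the matching bases in capitals.
Nfkbia, chr12:55492648-55492897, minus strand: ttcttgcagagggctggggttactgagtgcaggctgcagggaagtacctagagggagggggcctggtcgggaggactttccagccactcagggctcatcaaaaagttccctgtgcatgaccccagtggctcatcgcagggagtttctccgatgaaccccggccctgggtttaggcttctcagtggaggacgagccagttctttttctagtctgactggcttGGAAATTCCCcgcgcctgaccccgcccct
Tnfaip3, chr10:19015411-19015660, minus strand: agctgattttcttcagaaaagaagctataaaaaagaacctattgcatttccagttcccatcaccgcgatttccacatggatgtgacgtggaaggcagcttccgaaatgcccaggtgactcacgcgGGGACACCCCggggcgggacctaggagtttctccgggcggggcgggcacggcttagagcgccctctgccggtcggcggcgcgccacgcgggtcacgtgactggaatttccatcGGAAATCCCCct
Nfkbie, chr17:45555450-45555699, plus strand: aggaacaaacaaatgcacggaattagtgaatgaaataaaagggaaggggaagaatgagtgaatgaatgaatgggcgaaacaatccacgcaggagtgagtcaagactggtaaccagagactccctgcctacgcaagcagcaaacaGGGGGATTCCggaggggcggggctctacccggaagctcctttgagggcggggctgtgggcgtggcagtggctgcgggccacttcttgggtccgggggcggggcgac
Rel, chr11:23770970-23771219, minus strand: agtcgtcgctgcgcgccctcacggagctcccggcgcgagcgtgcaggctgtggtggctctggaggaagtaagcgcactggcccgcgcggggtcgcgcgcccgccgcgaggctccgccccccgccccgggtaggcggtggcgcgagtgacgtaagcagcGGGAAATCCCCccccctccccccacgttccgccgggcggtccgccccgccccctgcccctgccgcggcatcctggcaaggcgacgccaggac
Nfkb2, chr19:46304487-46304736, plus strand: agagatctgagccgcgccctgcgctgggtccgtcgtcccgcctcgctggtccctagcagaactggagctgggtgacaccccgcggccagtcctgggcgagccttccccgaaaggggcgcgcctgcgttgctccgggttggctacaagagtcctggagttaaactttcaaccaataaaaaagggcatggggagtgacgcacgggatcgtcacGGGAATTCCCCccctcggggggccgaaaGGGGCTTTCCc
In Nfkbia the match is GGAAATTCCC, at positions -29 to -20 relative to the start. Tnfaip3 has 1 match at positions -125 to -116 and another at -12 to -3 relative to the start shown, and no match before a second start. The deposited Tnfaip3 row reaches 19015657 on this minus strand, so it begins upstream of the RefSeq start shown. Both matches lie inside that row. Nfkbie has GGGGGATTCC at positions -106 to -97. The 2 matches of Rel overlap and cover GGGAAATCCCC, and in the Nfkb2 window 2 of the 3 matches overlap. Nfkb2 has 2 further starts whose windows are not shown, with 1 match each, GGAATGTCCC at positions -236 to -227 and GGGACTTTCC at -225 to -216 relative to their own start. A match shows only that these letters are there. The sequences are RefSeq's. In the deposited table (GRCm38) Nfkbia lies on chromosome 12 (55489410 to 55492647), Tnfaip3 on chromosome 10 (19000910 to 19015657), Nfkbie on chromosome 17 (45555703 to 45563169), Nfkbiz on chromosome 16 (55811375 to 55838899), Rel on chromosome 11 (23736847 to 23770970) and Nfkb2 on chromosome 19 (46304737 to 46312090). Relb (19606217 to 19629438) and Bcl3 (19808462 to 19822770) are both on chromosome 7.

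Total counts ran from 18206427 to 22853583 per library, and each of the 10 genes had between 1763 and 26351 counts in every library, so counting error was small beside the spread between animals. Values are in CPM, counts scaled to library size with TMM factors, in the order M_KO_5944, M_KO_5645 and M_KO_5642, then M_WT_5643, M_WT_6258 and M_WT_6255. Men1 checked the labels: it was at 8.15, 6.45 and 8.42 CPM in M_KO, 25.7, 17.1 and 21.4 CPM in M_WT, 11.7 CPM in F_KO and 18.1 CPM in F_WT. The macrophage markers Adgre1 and Csf1r were at 1209 CPM or more in all 8 libraries. The full list of 8 macrophage markers summed to between 17909 and 32119 CPM. Its lowest genes were Fcgr1, at 4.31 to 16.9 CPM, and Mertk, at 25.3 to 72.4 CPM. Lyz2 was lower and Csf1r higher in every M_KO library than in any M_WT library. Among all tested genes, 6.95% were lower and 9.09% higher in this way. M_KO_5642 stood apart in markers of resident peritoneal macrophages, with a sum over 6 genes of 1095 CPM, against 5096 and 6627 CPM in the other M_KO libraries and 3482 to 4483 CPM in M_WT. B cell markers summed to 291, 575 and 189 CPM in M_KO and 386, 128 and 124 CPM in M_WT over 6 genes, and to 622 CPM in F_KO and 378 CPM in F_WT. The 8 neutrophil markers summed to at most 16.8 CPM, with Mpo at 0 counts in every library, and the 6 T and NK cell markers to at most 0.792 CPM. The mast cell and basophil, eosinophil, dendritic cell, and mesothelial and fibroblast lists, of 6 genes each, summed to at most 20.5, 7.53, 26.7 and 6.89 CPM in a library. In RNA of bulk samples, fewer cells of a type and less RNA per cell cannot be told apart.

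None of the 10 genes passed the test between M_KO and M_WT. The count was 0 of 10 by edgeR's quasi-likelihood test with Benjamini-Hochberg adjustment over all genes (background 0.0220%), 0 by DESeq2 (1.47%), and 0 in the authors' deposited table (0.784% of the same tested genes). At an unadjusted edgeR p under 0.05 the count was also 0, against 9.56% of all genes. Men1 itself was not called by edgeR (log2 fold change -1.49, edgeR adjusted p = 0.284). DESeq2 called it (adjusted p = 1.75e-06), as did the authors' deposited table (adjusted p = 0.00363). A count of 0 by edgeR in 3 against 3 libraries therefore does not show that a gene is unchanged. For all 10 genes the M_KO and M_WT libraries overlapped, against 16.0% of genes without overlap. The fitted value was below 0 for 7 genes and above 0 for 3, where 48.5% of all genes were below 0. The median log2 fold change was -0.13 over the 10 genes and 0.01 over all tested genes.

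**Figure D1:**
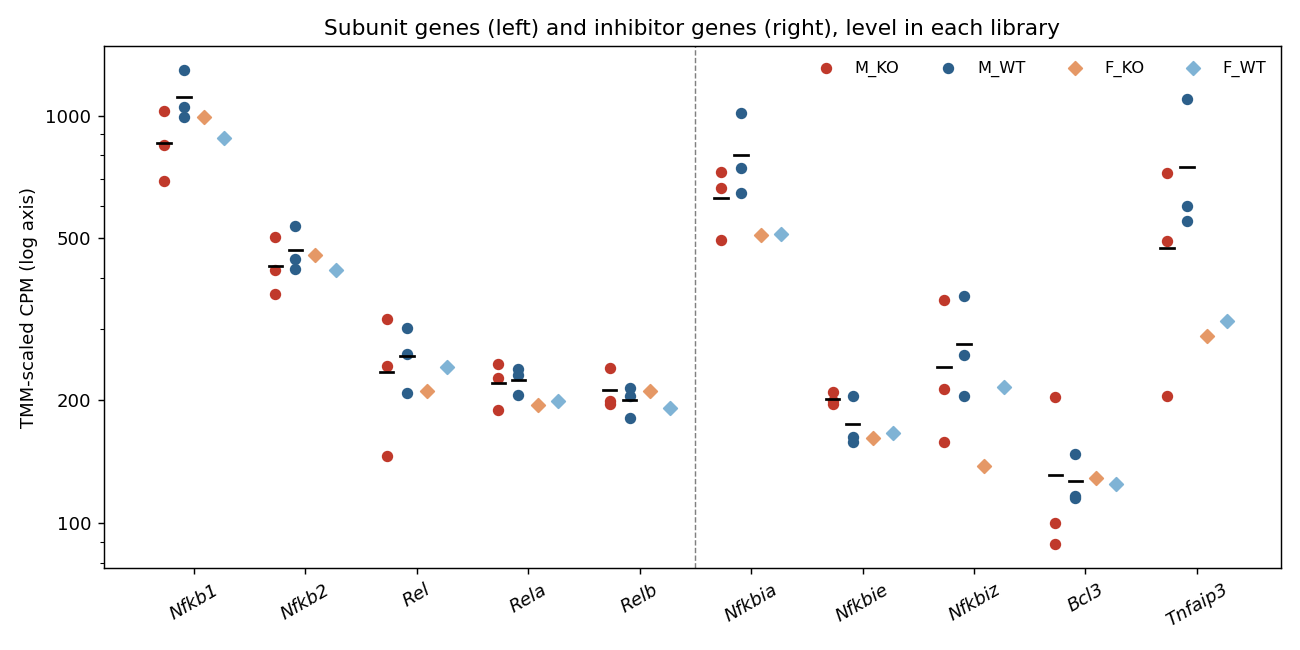
Level of each gene in each library, as TMM-scaled CPM on a log axis, with the 5 subunit genes left of the dashed line and the 5 inhibitor genes right of it. Circles are M libraries with a bar at the group mean (n = 3), diamonds are the single F libraries. For every gene the M_KO and M_WT circles overlap, and Tnfaip3 has the widest range, 205.2 to 1100 CPM over the M libraries.

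Nfkb1 was the subunit gene with the largest fitted difference. It was at 1026, 692.4 and 849.0 CPM in M_KO and 1297, 993.6 and 1052 CPM in M_WT. M_KO_5944 lay above M_WT_6258, and the other M_KO libraries lay below all M_WT libraries. The means were 855.9 ± 167.1 CPM in M_KO and 1114 ± 160.9 CPM in M_WT (SD, n = 3 each), with a log2 fold change of -0.39 (SE 0.20, 95% interval -0.86 to 0.08, edgeR adjusted p = 0.570). In the F libraries the order was the other one, with 989.9 CPM in F_KO and 883.5 CPM in F_WT. The gene lies on chromosome 3 (135584655 to 135691547, minus strand), and its row overlaps that of Gm43430, which had at most 78 counts.

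Nfkb2, whose product pairs mainly with Relb, was at 419.0, 502.3 and 364.5 CPM in M_KO and 535.6, 446.0 and 419.7 CPM in M_WT. The groups overlapped over most of their range, with a log2 fold change of -0.13 (95% interval -0.54 to 0.28), which was -0.01 without M_WT_5643 and -0.26 without M_KO_5645. Its row overlaps that of Psd on the other strand, which had 587 to 1521 counts, and the strand setting used in counting is unknown here, so reads of both genes cannot be told apart where they overlap. Relb was at 199.4, 240.1 and 195.5 CPM in M_KO and 181.1, 204.8 and 213.9 CPM in M_WT. Its interval of -0.25 to 0.40 around a log2 fold change of 0.08 was the narrowest of the 10, with that of Nfkbie next.

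Rela encodes the most widely used transactivating subunit. It was at 227.2, 245.2 and 189.7 CPM in M_KO and 230.5, 205.9 and 238.5 CPM in M_WT. The means of 220.7 ± 28.3 CPM in M_KO and 225.0 ± 17.0 CPM in M_WT (SD, n = 3 each) differed by less than either SD, with a log2 fold change of -0.03 (95% interval -0.37 to 0.31). Rela lies on chromosome 19 (5637483 to 5648130, plus strand), 686.8 kb before Men1, so it is a neighbour of the targeted locus. Rel, which macrophages and lymphocytes use for a subset of cytokine genes, was at 243.6, 316.7 and 146.0 CPM in M_KO and 300.5, 260.2 and 208.7 CPM in M_WT. M_KO held both its highest and its lowest value, and the log2 fold change was -0.13 (95% interval -0.83 to 0.57). That value was 0.12 without M_KO_5642 and -0.40 without M_KO_5645.

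Tnfaip3 had the largest fitted difference of the 10 genes and also the largest spread. It was at 493.1, 721.8 and 205.2 CPM in M_KO and 1100, 600.4 and 550.5 CPM in M_WT. M_KO_5645 lay above M_WT_6258 and M_WT_6255, while M_KO_5642 was the lowest library of the series and M_WT_5643 the highest. The means were 473.4 ± 258.9 CPM in M_KO and 750.2 ± 303.6 CPM in M_WT (SD, n = 3 each), with a log2 fold change of -0.67 (SE 0.48, 95% interval -1.81 to 0.48, edgeR adjusted p = 0.677). The value was -0.31 without M_KO_5642, the library low in resident macrophage markers, -0.28 without M_WT_5643, and -1.11 without M_KO_5645. The part of those markers in this value was not tested. The F libraries were close to each other, with 288.0 CPM in F_KO and 313.7 CPM in F_WT. In the authors' deposited table its log2 fold change is -0.66 with an adjusted p of 0.966.

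Nfkbia was at 664.7, 728.1 and 494.4 CPM in M_KO and 1014, 742.1 and 647.2 CPM in M_WT. M_KO_5944 and M_KO_5645 lay above the lowest M_WT library. The log2 fold change was -0.35 (SE 0.23, 95% interval -0.90 to 0.20, edgeR adjusted p = 0.643), and -0.14 without M_WT_5643. In the F libraries it was at 508.7 CPM in F_KO and 511.3 CPM in F_WT, both below the M_WT values. Nfkbie, the gene of IkB-epsilon, was at 195.8, 210.0 and 199.6 CPM in M_KO and 205.5, 158.0 and 162.7 CPM in M_WT. The M_KO libraries lay close together, above M_WT_6258 and M_WT_6255 and around M_WT_5643. Its log2 fold change was 0.20 (95% interval -0.13 to 0.53, edgeR adjusted p = 0.670), and 0.12 without M_WT_6258 and 0.33 without M_WT_5643, with 161.3 CPM in F_KO and 166.6 CPM in F_WT.

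Nfkbiz, the nuclear inhibitor relative that macrophages need for genes such as Il6, was at 213.0, 352.3 and 157.8 CPM in M_KO and 361.6, 257.9 and 205.0 CPM in M_WT. The M_KO and M_WT libraries interleaved, with a log2 fold change of -0.19 (95% interval -1.0 to 0.61). It was the gene with the largest difference in the F pair, at 138.1 CPM in F_KO and 216.2 CPM in F_WT. Bcl3 was at 99.7, 204.3 and 88.6 CPM in M_KO and 147.9, 116.6 and 114.9 CPM in M_WT. M_KO_5645, the M library highest in B cell markers, was also the highest of all for Bcl3, and the other M_KO libraries were the lowest. In F_KO, where those markers summed higher still, Bcl3 was at 128.9 CPM, against 125.0 CPM in F_WT. The part of B cells in the level of Bcl3 was not tested. The log2 fold change of Bcl3 was 0.05 (95% interval -0.74 to 0.83) and was -0.43 without M_KO_5645. Relative to the M_KO mean of 130.9 CPM its SD was 63.8 CPM, against 126.5 ± 18.6 CPM in M_WT (n = 3 each). The row of Bcl3 overlaps the antisense genes Gm16174 and Gm16175, which had at most 72 and 25 counts.

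**Figure D2:**
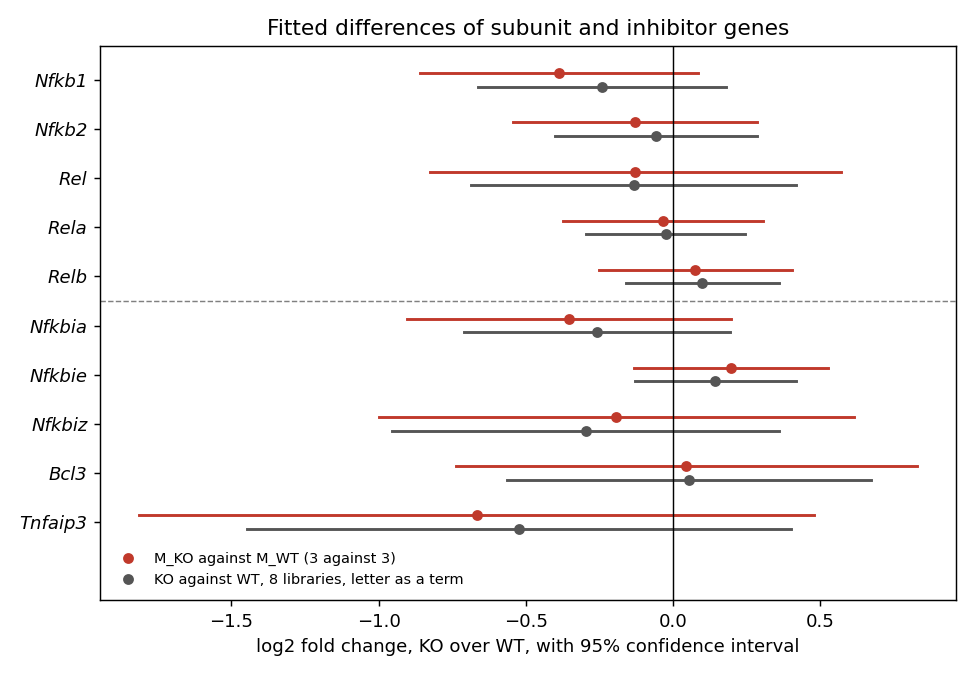
Log2 fold change of KO over WT with its 95% confidence interval for each gene, from the 6 M libraries (red, 3 against 3) and from all 8 libraries with the letter as a term (grey, 4 against 4). All 20 intervals include 0, and the widest is that of Tnfaip3, -1.81 to 0.48 in the M libraries.

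The intervals set what size of difference these libraries leave possible. For Rela, Relb, Nfkb2 and Nfkbie the M intervals stay within log2 -0.54 and 0.53. For Tnfaip3 and Nfkbiz they reach -1.81 and -1.0, so larger differences of those transcripts remain possible in these libraries. With all 8 libraries and the letter as a term, edgeR called 0 of the 10 genes (background 0.00727%), and 0 at an unadjusted p under 0.05 (9.48%). The KO and WT libraries overlapped for all 10, where 2.40% of genes were lower and 3.23% higher in every KO library. The log2 fold changes in that fit were -0.24 for Nfkb1 (95% interval -0.66 to 0.18), -0.26 for Nfkbia (-0.71 to 0.19), -0.30 for Nfkbiz (-0.95 to 0.36) and -0.52 for Tnfaip3 (-1.45 to 0.40). The other 6 lay between -0.13 and 0.14. The M libraries are shared by both fits, so they are not separate evidence.

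With 1 library per genotype, F_KO against F_WT could not be tested. Here 6 of the 10 genes were at a lower log2 CPM in F_KO, where 51.6% of all tested genes were. The ratio of F_KO to F_WT was 0.639 for Nfkbiz (95% exact Clopper-Pearson interval 0.610 to 0.669), 0.877 for Rel (0.842 to 0.912) and 0.918 for Tnfaip3 (0.887 to 0.950). It was 1.12 for Nfkb1 (1.10 to 1.14), 1.10 for Relb (1.05 to 1.15) and 1.09 for Nfkb2 (1.06 to 1.12). For Rela, Nfkbia, Nfkbie and Bcl3 the interval included 1. These intervals cover counting error only, and 5 of the 10 genes differed by more than 1.5-fold between animals of 1 M group. A term for the interaction of genotype and letter was called for 0 of the 10 genes (background 0.0218%), with an edgeR adjusted p of 0.965 or more, and for 0 at an unadjusted p under 0.05 (4.36%).

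The subunit and inhibitor genes were then set against each other. The median log2 fold change was -0.13 over the 5 subunit genes, of which 4 were below 0, and -0.19 over the 5 inhibitor genes, of which 3 were below 0. The mean log2 fold change of the inhibitors was below that of the subunits by a difference of -0.07. Within a library, the mean log2 CPM of the inhibitor genes minus that of the subunit genes, centred on the 6 M libraries, came to -0.14, 0.28 and -0.29 in M_KO and 0.32, -0.02 and -0.14 in M_WT. It was -0.43 in F_KO and -0.23 in F_WT. The groups overlapped, and the range within each M genotype was larger than the difference between them. Leaving out 1 M library put the difference of the mean log2 fold changes between -0.27 (without M_KO_5645) and 0.08 (without M_WT_5643).

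**Figure D3:**
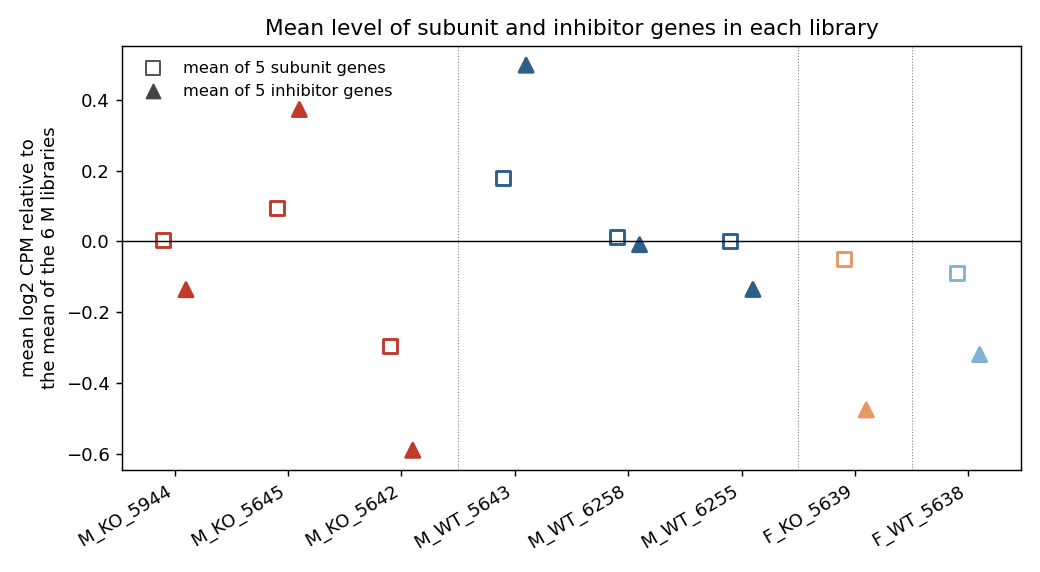
Mean log2 CPM of the 5 subunit genes (open squares) and the 5 inhibitor genes (filled triangles) in each library, relative to the mean of the 6 M libraries. The inhibitor mean runs from -0.59 in M_KO_5642 to 0.50 in M_WT_5643 and the subunit mean from -0.30 to 0.18 in the same libraries, with M_KO_5645 second highest for both.

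Levels varied between animals of the same genotype. Of the 6 M libraries, M_KO_5645 was highest for 5 of the 10 genes and M_WT_5643 for the other 5, while M_KO_5642 was lowest for 7, among them 4 of the 5 inhibitor genes. The subunit mean was at 0.0051, 0.095 and -0.30 in M_KO and 0.18, 0.012 and 0.0024 in M_WT, and the inhibitor mean at -0.14, 0.37 and -0.59 in M_KO and 0.50, -0.0091 and -0.14 in M_WT. Among animals with numbers beginning with 56, M_WT_5643 is the only M_WT library, and no test was made within them. Against it, Tnfaip3 was at log2 -0.61 in M_KO_5645 and -2.42 in M_KO_5642, Nfkbia at -0.48 and -1.04, and Nfkb1 at -0.91 and -0.61. Relb was at 0.41 and 0.11. Beside M_KO_5645 and M_WT_5643 stand the highest B cell marker sums of the M libraries, 575 and 386 CPM. In F_KO and F_WT those sums were 622 and 378 CPM, with inhibitor means of -0.48 and -0.32 and subunit means of -0.050 and -0.090. The part of those markers in the level of these genes was not tested.

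The genes differed in their SD of log2 CPM between animals of a group. In M_KO the SD was 0.93 for Tnfaip3, larger than that of 91.4% of all tested genes, 0.65 for Bcl3, 0.59 for Nfkbiz and 0.57 for Rel. It was 0.19 for Rela, 0.16 for Relb and 0.05 for Nfkbie, which was smaller than all but 3.93% of genes. In M_WT the SD was 0.54 for Tnfaip3, 0.41 for Nfkbiz and 0.33 for Nfkbia, against 0.11 for Rela and 0.12 for Relb. The median over all tested genes was 0.28 in M_KO and 0.23 in M_WT. Across all 8 libraries, the smallest root mean square difference in centred log2 CPM between members was that of Rela and Relb (0.14). The largest was that of Relb and Tnfaip3 (0.74). Genes that vary little lie close together by this measure, so it does not show that Rela and Relb move together. In M_WT_5643, Rela was at 0.05 and Relb at -0.18 relative to the mean of the M libraries. Nfkbia was closest to Nfkb2 (0.23), Rel (0.24) and Nfkbiz (0.25).

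Ratios within a library do not depend on its scaling. Of the 45 ratios between these genes, 5 did not overlap between M_KO and M_WT. In 3 of them Nfkbie was the denominator. Nfkbia per Nfkbie was 6.42, 6.56 and 4.68 in M_KO and 9.34, 8.89 and 7.52 in M_WT, as FPKM ratios. IkB-alpha and IkB-epsilon transcripts stood in a lower ratio in all 3 M_KO libraries. The F pair did not show this, with 5.97 in F_KO and 5.80 in F_WT. Nfkb1 per Nfkbie was 1.32, 0.832 and 1.07 in M_KO and 1.59, 1.59 and 1.63 in M_WT, but 1.55 in F_KO and 1.34 in F_WT. Nfkb2 per Nfkbie was 1.98, 2.21 and 1.69 in M_KO and 2.41, 2.61 and 2.39 in M_WT, but 2.61 in F_KO and 2.33 in F_WT. Of all other tested genes, 13.5% had a ratio to Nfkbie that was lower in every M_KO library than in any M_WT library. The other 2 were Rel and Nfkbiz per Tnfaip3, each higher in M_KO by a narrow gap. The background for a higher ratio to Tnfaip3 was 16.0%. In the F pair both went the other way. Rel per Tnfaip3 was 0.711 in F_KO and 0.744 in F_WT, and Nfkbiz per Tnfaip3 was 0.690 and 0.992. These ratios were chosen after their values were seen. For the count of 5 among 45 ratios, no share over pairs of all tested genes was computed.

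Levels between genes were compared per length, as FPKM. All 10 genes were well expressed, from the 89.8 percentile of tested genes by M_WT mean (Rel) to the 99.3 percentile (Nfkbia). Nfkbia had 386.5 ± 77.0 FPKM in M_KO and 497.1 ± 121.3 FPKM in M_WT (SD, n = 3 each), above every other member in all 8 libraries. Nfkb2 was next, with 128.8 ± 21.5 FPKM in M_KO and 141.8 ± 19.3 FPKM in M_WT. In M_WT the order went on with Tnfaip3 (103.8 ± 42.6), Nfkb1 (92.2 ± 13.7), Rela (82.6 ± 5.97), Nfkbie (57.5 ± 8.87), Nfkbiz (54.7 ± 16.2), Relb (51.3 ± 4.04), Bcl3 (51.0 ± 7.78) and Rel (34.3 ± 6.39 FPKM). Of the neighbours in this order, Nfkbia and Nfkb2, Rela and Nfkbie, and Bcl3 and Rel had libraries that did not overlap. The other 6 neighbouring pairs overlapped, but Nfkb2 was above Tnfaip3 within each M_WT library (ratios 1.07, 1.63 and 1.67). In M_KO, Tnfaip3 stood sixth at 64.9 ± 35.6 FPKM, behind Rela (80.3 ± 10.9), Nfkb1 (70.2 ± 14.1) and Nfkbie (65.5 ± 2.38). Relb (53.8 ± 6.39), Bcl3 (52.3 ± 25.6), Nfkbiz (47.5 ± 19.9) and Rel (31.2 ± 11.5 FPKM) followed, and all neighbours from Rela on overlapped. Within each M_KO library Rel was still below Nfkbiz (ratios 0.769, 0.604 and 0.622). In the F pair Tnfaip3 stood eighth, at 39.6 FPKM in F_KO and 42.6 FPKM in F_WT. The deposited length of Nfkb1 is 12061 bases, the largest of the 10, and FPKM divides by that length. In CPM, which does not, Nfkb1 had the highest M_WT mean of the 10, at 1114 CPM against 801.2 CPM for Nfkbia.

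**Figure D4:**
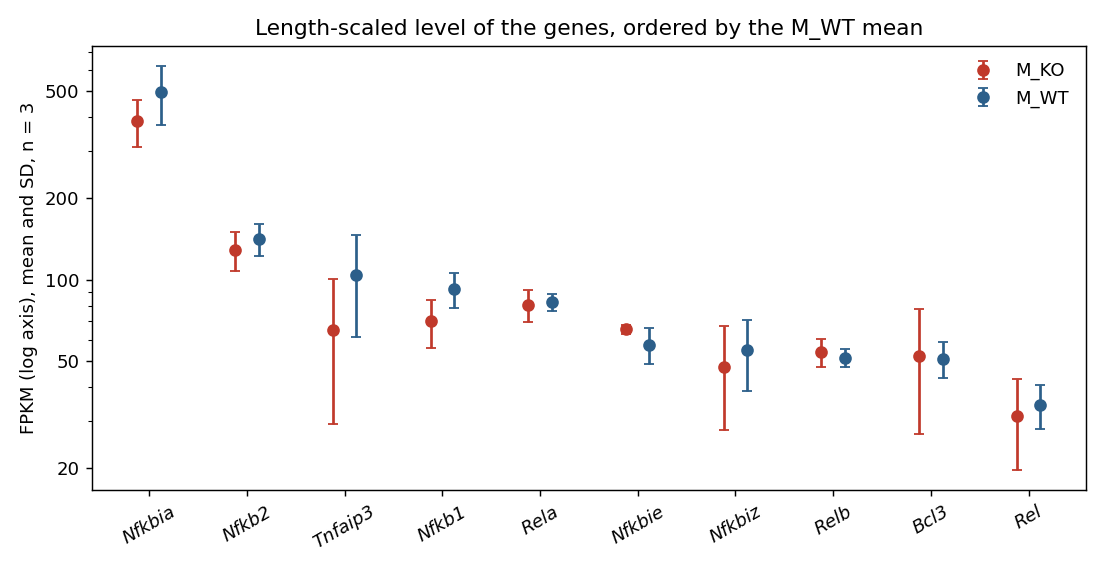
Length-scaled level of each gene as the mean FPKM with SD (n = 3), on a log axis, in M_KO (red) and M_WT (blue), ordered by the M_WT mean. Nfkbia stands highest at 386.5 FPKM in M_KO and 497.1 FPKM in M_WT, and the bars of the 2 genotypes overlap for every gene.

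Genes around these 10 in the pathway were taken from 3 lists. Of 23 genes that carry the signal to NF-kB (receptor adaptors, kinases and the ubiquitin ligase complex), edgeR and DESeq2 called 0 (background 0.0220% and 1.47%), 15 had a fitted value below 0 (48.5% of all tested genes), and the median log2 fold change was -0.04. The most abundant were Ikbke, Tab2 and Ikbkb. Ikbkb, the kinase subunit that phosphorylates IkB-alpha, averaged 190.9 ± 29.2 CPM in M_KO and 249.8 ± 41.3 CPM in M_WT (SD, n = 3 each; log2 fold change -0.39, edgeR adjusted p = 0.548). Ikbke had a log2 fold change of 0.20 and Tab2 of -0.32. In 4 genes, Irak1, Irak4, Rbck1 and Sharpin, every M_KO library was higher than any M_WT library (background 9.09%), with log2 fold changes of 0.27 to 0.43, and in Tab3 all were lower (background 6.95%).

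Of 18 other negative regulators, edgeR called 0 (background 0.0220%) and DESeq2 called 1 (1.47%), with 12 fitted values below 0 (48.5% of all tested genes) and a median log2 fold change of -0.14. The call was Rnf11, a small ring-finger protein that works with the Tnfaip3 product. It was at 60.4, 48.4 and 63.0 CPM in M_KO and 82.9, 90.2 and 86.4 CPM in M_WT, with 60.1 CPM in F_KO and 65.7 CPM in F_WT. The groups did not overlap, where 6.95% of all tested genes were lower in each M_KO library (log2 fold change -0.60, SE 0.13; DESeq2 adjusted p = 0.0222, edgeR adjusted p = 0.430). Its adjusted p in the authors' deposited table is 0.521. Tnip1, which links the Tnfaip3 product to its substrates, was at 397.4, 379.7 and 340.5 CPM in M_KO and 510.6, 422.1 and 410.7 CPM in M_WT (log2 fold change -0.27, edgeR adjusted p = 0.581). Tax1bp1 and Irak3, the other abundant members, had log2 fold changes of -0.39 and 0.07. Of the 18 genes, 3 were lower in each M_KO library than in any M_WT library (background 6.95%). They were Rnf11, Tnip1 and Nfkbib (log2 fold change -0.37). Itch was higher in each M_KO library (log2 fold change 0.25, background 9.09%).

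Fitted differences were larger among the 32 target genes. Of them 29 had a fitted value below 0, where 48.5% of all tested genes did, with a median log2 fold change of -0.87, and 14 were lower in each M_KO library than in any M_WT library (background 6.95%), while Icam1 was higher. EdgeR called 0 (background 0.0220%) and DESeq2 called 5 (1.47%), Tnf, Il1a, Ccl3, Ccl4 and Csf2, all lower in M_KO. In the authors' deposited table the adjusted p is 0.0118 for Il1a, 0.00268 for Ccl3, 2.07e-06 for Ccl4 and 1.43e-05 for Csf2. For Tnf it is 0.0779, above the threshold. Csf2 was low, at 2.04, 0.973 and 0.399 CPM in M_KO and 14.5, 14.1 and 5.92 CPM in M_WT. Il1a, a cytokine of the interleukin-1 family, was at 353.8, 261.8 and 82.5 CPM in M_KO and 1164, 692.4 and 597.4 CPM in M_WT (log2 fold change -1.82, SE 0.54; DESeq2 adjusted p = 0.0352, edgeR adjusted p = 0.464). The most abundant targets, Cxcl2, Sod2 and Cxcl1, overlapped between the groups, with log2 fold changes of -0.47, -0.40 and -0.82. Of the 5 inhibitor genes, which are targets as well, Tnfaip3 (-0.67), Nfkbia (-0.35) and Nfkbiz (-0.19) lay between the median of the targets and that of all genes. Bcl3 (0.05) and Nfkbie (0.20) lay above the median of all genes. In the F pair 22 of the 32 targets were at a lower log2 CPM in F_KO, where 51.6% of all tested genes were. Of the 14 targets lower in each M_KO library, Il1b, Ptgs2, Ptges, Ier3 and Bcl2a1b were higher in F_KO than in F_WT. Icam1 was lower in F_KO. The difference between the lists was not tested, and the target list resembles one whose direction in these libraries was already known.

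**Figure D5:**
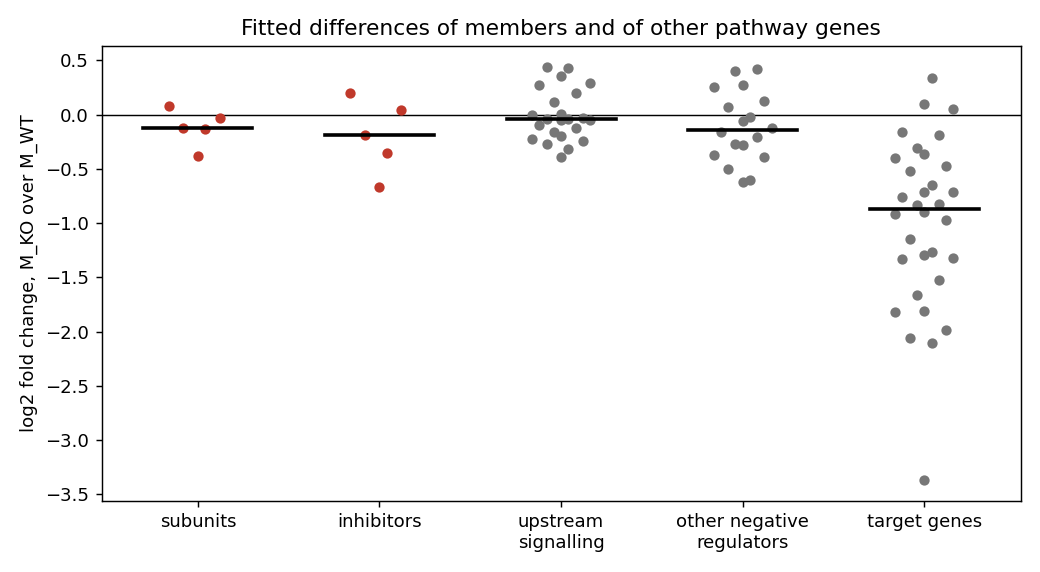
Log2 fold change of M_KO over M_WT for each tested gene of the 5 subunits, the 5 inhibitors (red) and the 3 lists of other pathway genes (grey), with a bar at each median. The medians are -0.13, -0.19, -0.04, -0.14 and -0.87 from left to right.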

How the data were processed

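The library kit was NEBNext Ultra RNA, per the labels' protocols. The submitters' processing notes list DESeq2 1.16.1, featureCounts 1.5.0-p3 and HISAT2 2.0.5 as tools and mm10 and GRCm38 as builds. The annotation release and strand setting were not found in those notes or the labels. The authors deposited raw read counts per gene. The deposited FPKM table holds counts scaled by the authors to gene length and library size. Log2 fold changes and p-values of M_KO against M_WT are in a comparison table the authors deposited.

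The quasi-likelihood test of edgeR 4.0.16 (R 4.3.3) was run on the counts after TMM scaling and edgeR's default expression filter, with Benjamini-Hochberg adjustment over all tested genes and a threshold of 0.05. The M fit used 6 libraries (4 residual degrees of freedom). The fits over 8 libraries (13751 genes) had terms for genotype and letter, with or without an interaction. Standard errors came from the quasi-likelihood F statistic and 95% intervals from its t distribution. Log2 CPM used a prior count of 2, and FPKM was tested as log2(FPKM + 1) with limma 3.58.1. DESeq2 1.42.0 was an alternative, run on the same filtered genes.

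The genes and lists were chosen with earlier results of these data known. All 10 genes were named, with Men1, the 3 most abundant genes of each pathway list and any of that list called by edgeR or DESeq2. For each gene the closest 2 others with a mean log2 CPM of at least 3 were also named. Groups came from the sample titles.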

Additional observations from a re-analysis of the deposited data

How the results depend on the processing

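No paired analysis was possible because the groups share no animal number. For the 10 genes, 14 alternatives to the M comparison were tried: DESeq2, RLE scaling, no filter and a filter of 1 CPM in 3 libraries, limma voom, a fit over all 8 libraries, limma on log2(FPKM + 1), a term for animal numbers beginning with 56, and leaving out each M library. None of the 10 passed under any of them, with a lowest adjusted p of 0.375. Nfkb1, Nfkb2, Nfkbia, Nfkbie and Tnfaip3 kept the sign of their log2 fold change throughout, but without 1 library it ran from -0.54 to -0.26 for Nfkb1, from -0.26 to -0.012 for Nfkb2, from -0.49 to -0.14 for Nfkbia, from 0.12 to 0.33 for Nfkbie and from -1.11 to -0.28 for Tnfaip3. That of Bcl3 was -0.048 with limma voom, -0.12 with the term for animal numbers and -0.056 with FPKM. Without 1 library it ran from -0.43 to 0.26 for Bcl3, from -0.40 to 0.12 for Rel, from -0.12 to 0.067 for Rela, from -0.027 to 0.13 for Relb and from -0.58 to 0.063 for Nfkbiz. Over all genes, the M comparison had 3 calls with edgeR, 200 with DESeq2, 16 with no filter, and 0 (without M_WT_6255) to 21 (without M_WT_5643) without 1 library. KO against WT over 8 libraries had 1 call, 142 with DESeq2, 7 with no filter, and 0 (without M_WT_6258 or M_KO_5944) to 3 without 1 library. The interaction had 3 calls, 30 with DESeq2, and 0 (without M_WT_6255 or M_KO_5645) to 6 (without M_WT_6258) without 1 M library. The cause of these differences was not tested. Where a library was left out of a group, the remaining ones were assumed to vary like the rest.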

Other observations

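Some genes outside the family had nearly the same pattern over the 8 libraries as a member, measured by the root mean square difference of centred log2 CPM. For Relb the closest were Spg7 (0.04) and Trp53inp2 (0.05), for Rela Avl9 (0.04) and Med13 (0.06), for Nfkb1 Eml4 and Manf (0.05 each), for Nfkb2 Ythdf1 (0.05) and Pdhx (0.06), and for Nfkbie Ascc1 (0.05) and Arid4a (0.07). For Nfkbia they were Rybp (0.10) and Map3k8 (0.12), for Rel Klf7 and Stk40 (0.12 each), and for Bcl3 Saal1 (0.13) and Pyroxd2 (0.14). Nfkbiz was closest to Noct and Cflar (0.22 each), and Tnfaip3 to Tiparp (0.23) and Nod1 (0.27). Cflar is also in the list of target genes. Many genes with little variation lie close to any steady gene, so a small difference is a description of these libraries.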
